A study of Caenorhabditis elegans with 12 samples.

Results

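The genes described here encode presenilin, the other subunits of gamma-secretase and the core of the Notch pathway in Caenorhabditis elegans. They were taken by symbol as the rows for sel-12, hop-1, aph-1, aph-2, pen-2, lin-12, glp-1, lag-1, lag-2 and apx-1, which is 10 of the 46739 genes in the count table. The rule uses no measured value, but the set was put together with earlier results of these data known. The 12 libraries were made from RNA of whole day-10 worms, 3 biological replicates for each of 4 genotypes, and library values are given in the order of the replicates. The genotypes were N2, the wild-type strain, daf-2, spr-4;spr-3, called the double mutant, plus its combination with daf-2, spr-4;spr-3;daf-2, called the triple mutant. All worms were grown at 20 °C on plates, with 100 worms taken per strain. No allele names are given in the labels, so it is not known whether each mutation is a null or leaves the transcript in place. Worms with less activity of DAF-2, their insulin/IGF-1 receptor, are long-lived. SPR-3 and SPR-4 are zinc finger proteins of a repressor complex related to vertebrate REST, and both were found as suppressors of the presenilin mutant sel-12.

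Gamma-secretase is a membrane protease with presenilin as its catalytic subunit, and worms carry the presenilins SEL-12 and HOP-1. The receptors LIN-12 and GLP-1 are its best known substrates: a ligand of the DSL family binds, an ADAM protease sheds the outer part, and gamma-secretase then releases the inner part, which joins the DNA-binding protein LAG-1 in the nucleus. In the adult, GLP-1 signalling keeps the germline stem cells dividing, and LIN-12 is known for cell fate decisions in the somatic gonad and vulva. In larvae, loss of spr genes is known to relieve repression of hop-1, which can stand in for sel-12.

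The libraries held 11892808 to 46493665 counts, and 18342 genes were tested. Levels are given as CPM, the counts scaled to a common library size, after TMM scaling, which corrects for the share of counts taken by a few abundant genes. The scaling factors ran from 0.846 in an N2 library to 1.21 in a library of the double mutant. Transcript of daf-2 ran from 62.7 to 72.6 CPM in the daf-2 mutant and from 35 to 38.7 CPM in N2, spr-3 ran from 26 to 30.5 CPM in the double mutant and from 21.2 to 24.4 CPM in N2, and spr-4 ran from 36.4 to 41.2 CPM in the double mutant and from 46.1 to 76.8 CPM in N2. None of the 3 mutated genes lost its transcript, so their counts cannot check the labels. Markers of neurons, body wall muscle, intestine, hypodermis, somatic gonad and germline were detected in each genotype, apart from rol-6, which had 0 counts in the double mutant.

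All 10 genes passed the filter on low counts, but their levels were far apart. Per kilobase of exon, the mean over the 12 libraries was 76.9 CPM for pen-2, 24.1 for aph-1, 21.9 for glp-1, 12.5 for hop-1, 10.9 for apx-1, 9.87 for lag-1, 9.58 for aph-2, 9.17 for sel-12, 2.82 for lin-12 and 0.834 for lag-2. Going down this order, pen-2 stood above aph-1 in every library (53 to 115 against 16.2 to 28.7 CPM per kb), and the genes from aph-1 to sel-12 overlapped their neighbours. Every lin-12 value, 1.61 to 4.22 CPM per kb, lay below every sel-12 value, and every lag-2 value, 0.0704 to 1.39 CPM per kb, lay below every lin-12 value. The 4 kinds of gamma-secretase subunit were thus detected at unequal transcript levels, with the small subunit gene pen-2 at the top in every genotype.

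**Figure D1:**
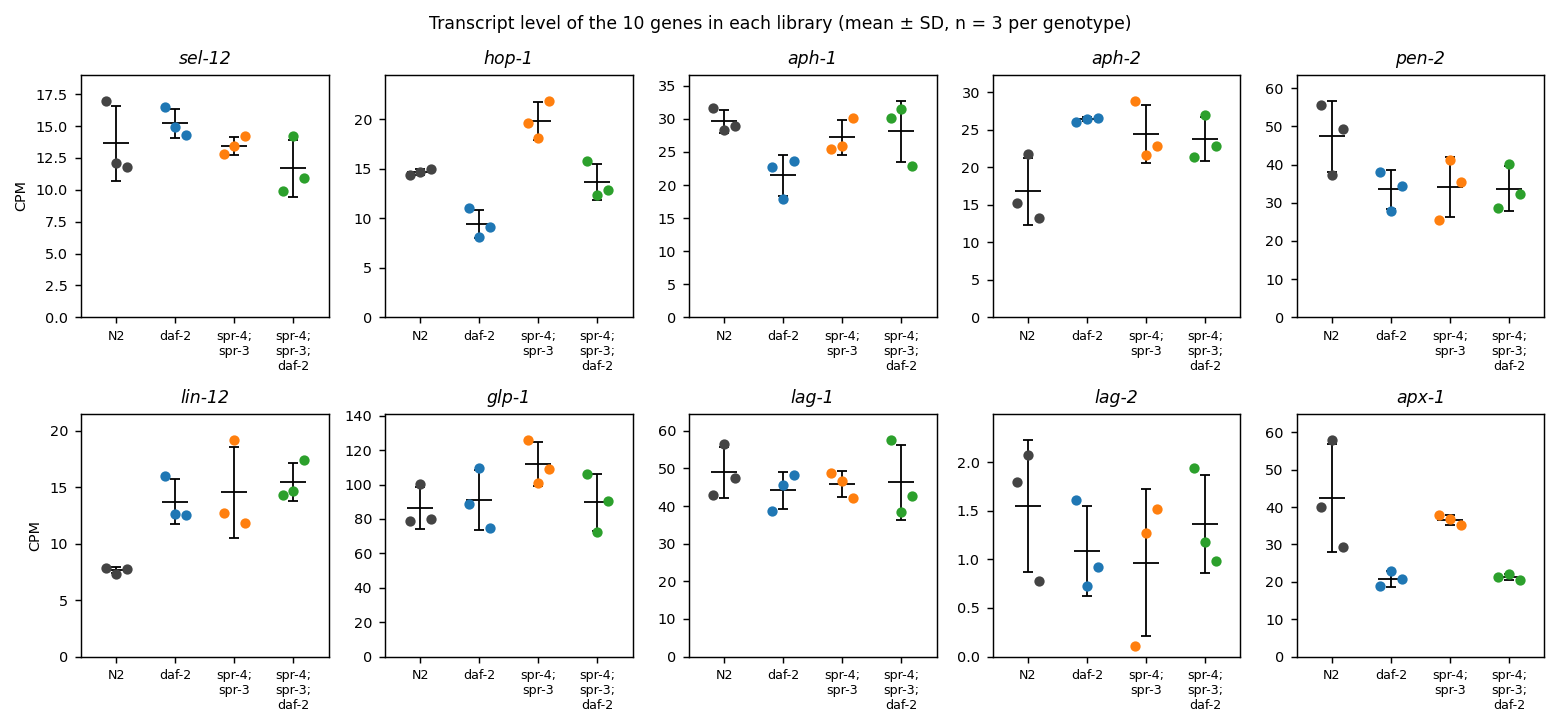
Transcript level of each of the 10 genes on a linear axis in CPM, with a point for every library and a bar at the mean ± SD of the 3 libraries of each genotype. The hop-1 and apx-1 points of the daf-2 mutant lie below all N2 points, and the lin-12 points of N2 lie below those of the other 9 libraries.

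Between daf-2 and N2, hop-1 and apx-1 fell and lin-12 and aph-2 rose. These are 4 of 10 genes past an adjusted p of 0.05 in edgeR's quasi-likelihood test with Benjamini-Hochberg adjustment over all tested genes, against 20.6% of all genes in that comparison (9.58% higher, 11% lower). The median log2 change of the 10 was -0.3, beside 0.06 over all genes tested. Between the double mutant and N2, 1 of the 10 passed (lin-12, higher), against 11.7% of all genes (5.07% higher, 6.6% lower). Between the triple and the double mutant, 2 passed (hop-1 and apx-1, both lower), against 14.9% (7.02% higher, 7.92% lower). Between the triple mutant and N2, 2 passed (lin-12 higher, apx-1 lower), against 22.2% (10.8% higher, 11.3% lower). Between the triple mutant and daf-2, edgeR called 0 of the 10, against 13.4% of all genes (6.77% higher, 6.65% lower). There, 2 had an unadjusted p below 0.05, and DESeq2 and limma-voom called 1 each, hop-1.

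**Figure D2:**
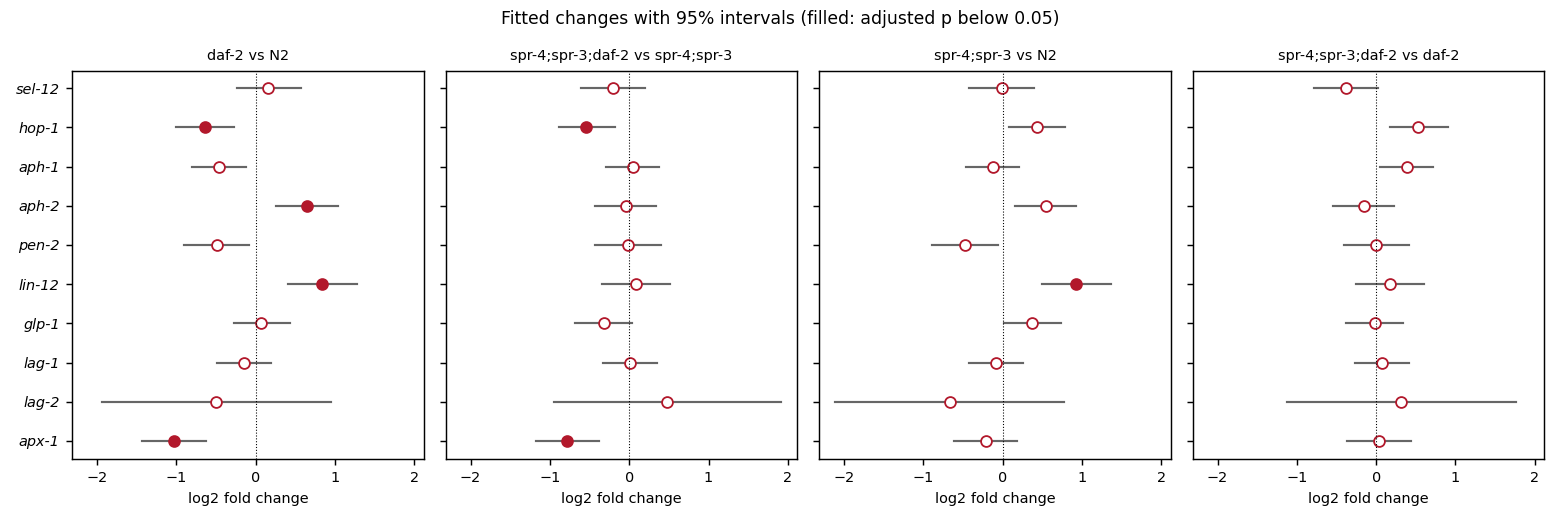
Log2 fold changes of the 10 genes with 95% intervals in 4 comparisons, one panel each, with filled points where the edgeR adjusted p was below 0.05. The daf-2 panel has 4 filled points, and the panel of the triple mutant against daf-2 has 0.

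The presenilin gene hop-1 (WBGene00001985, chromosome I, 4208515 to 4210341, minus strand, WBcel235) was lower in worms with the daf-2 mutation and higher in worms with the spr mutations. N2 measured 14.4, 14.7 and 15 CPM and daf-2 measured 11, 8.13 and 9.15 CPM. The double mutant measured 19.6, 18.1 and 21.9 CPM and the triple mutant 15.8, 12.4 and 12.9 CPM. The daf-2 libraries were the lowest and those of the double mutant the highest, with no overlap with each other or with the other groups, while N2 and the triple mutant overlapped. The level fell from 14.7 ± 0.312 CPM (SD, n = 3) in N2 to 9.41 ± 1.43 in daf-2, a log2 change of -0.64 ± 0.17 (SE; 95% interval -1.0 to -0.27; edgeR adjusted p = 0.0148). It fell from 19.9 ± 1.92 CPM in the double mutant to 13.7 ± 1.87 in the triple mutant, by -0.54 ± 0.17 (edgeR adjusted p = 0.0432).

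With the spr mutations, hop-1 was 0.43 ± 0.17 above N2 on the log2 scale in the double mutant (edgeR adjusted p = 0.109) and 0.53 ± 0.17 above daf-2 in the triple mutant (edgeR adjusted p = 0.0504), neither past the threshold. Averaged over both backgrounds, the rise with spr-4;spr-3 was 0.48 ± 0.12 (edgeR adjusted p = 0.012) and the fall with daf-2 was -0.59 ± 0.12 (edgeR adjusted p = 0.00196), in comparisons where 16.1% of all genes (7.83% higher, 8.23% lower) and 23.9% (11.4% higher, 12.5% lower) passed. The difference between the daf-2 effects with and without the spr mutations was 0.1 on the log2 scale, with a 95% interval of -0.41 to 0.61. The net change from N2 to the triple mutant was -0.1, with an interval of -0.46 to 0.26.

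The 2 averaged changes of hop-1 passed under each of the 20 other settings tried, and the pairwise calls were close to the threshold. The fall in daf-2 missed it without daf-2 replicate 2 or 3 (adjusted p = 0.0516 and 0.0529) and with library totals in place of TMM (-0.42, adjusted p = 0.127), where the median of all genes moved to 0.28. The fall in the triple mutant missed it without any of the 3 N2 libraries, daf-2 replicate 3, replicates 1 or 3 of the double mutant, or replicates 2 or 3 of the triple mutant (adjusted p from 0.0512 to 0.151). It also missed it with no filter on low counts (0.0891), with replicate number as a factor (0.0539) and on the 2 groups alone (0.082). With the trailing 1 or 2 of the library names as a factor the adjusted p was 0.0625. The rise from daf-2 to the triple mutant passed under 6 other settings. That from N2 to the double mutant passed with library totals (0.8, adjusted p = 0.00751). Exons of hop-1 share 18 bases with C18E3.3 on the other strand, and the kit does not mark strand.

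The other presenilin gene, sel-12 (WBGene00004769, chromosome X, 915867 to 918290), passed in no comparison. Its N2 libraries held 17, 12.1 and 11.8 CPM and its daf-2 libraries 16.5, 14.9 and 14.3 CPM. Those of the double mutant held 12.8, 13.4 and 14.2 CPM and those of the triple mutant 9.94, 14.2 and 10.9 CPM. The daf-2 values lay just above all those of the double and the triple mutant, and N2 overlapped every group. Between the triple mutant and daf-2 the log2 difference was -0.38 (95% interval -0.79 to 0.02), opposite in sign to that of hop-1, and between daf-2 and N2 it was 0.16 (-0.24 to 0.57).

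The balance between both presenilin genes was described as a share. Per kilobase of exon, hop-1 made up 51.9, 60.8 and 61.9% of presenilin RNA in N2 and 45.8, 41 and 44.9% in daf-2. For the double mutant the shares were 66.2, 63.2 and 66.3%, and for the triple mutant 67, 52.7 and 60.1%. The daf-2 libraries were the only ones in which hop-1 was the smaller part, and they did not overlap any other group. The sum of both presenilins was 22 ± 1.74 CPM per kb for N2, 18.5 ± 1.93 for daf-2, 26.3 ± 2.0 for the double mutant and 19.8 ± 1.06 for the triple mutant. These shares are a description and were not tested, since an exact permutation test of 3 libraries against 3 gives a two-sided p of 0.1 at best.

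**Figure D3:**
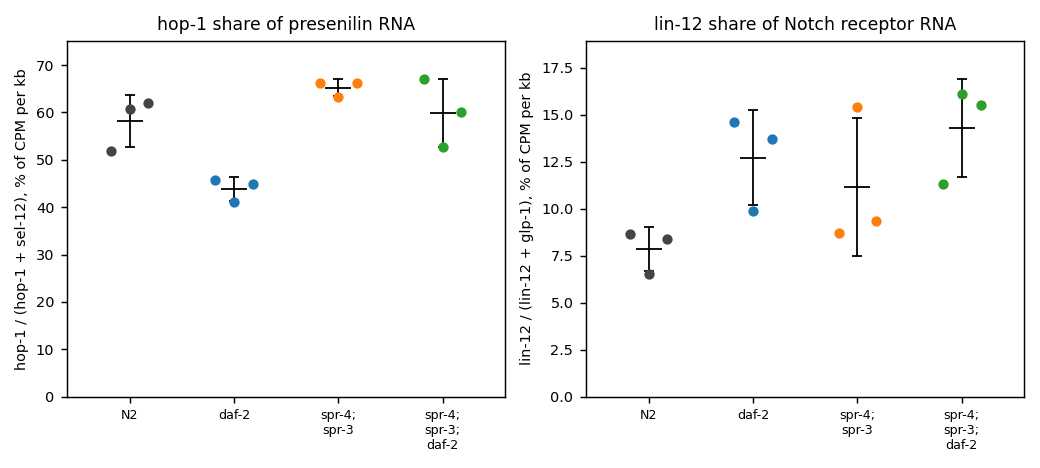
Share of hop-1 in the RNA of both presenilins (left) and of lin-12 in the RNA of both Notch receptors (right), in percent of CPM per kb, with a point for every library and bars at the mean ± SD of 3. The hop-1 share is lowest in daf-2, at 43.9 ± 2.54%, and the lin-12 share is lowest in N2, at 7.85 ± 1.17%.

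Among the remaining gamma-secretase subunits, aph-2, which encodes nicastrin (WBGene00000148, chromosome I, 10340997 to 10345654), rose in daf-2. N2 measured 15.3, 21.8 and 13.3 CPM and daf-2 measured 26.1, 26.5 and 26.6 CPM. The double mutant measured 28.9, 21.7 and 22.8 CPM and the triple mutant 21.4, 27 and 22.8 CPM. The daf-2 libraries lay close together above all N2 libraries, and N2 replicate 2 reached into the range of both spr strains. The daf-2 rise was 0.65 ± 0.18 on the log2 scale (95% interval 0.26 to 1.04; edgeR adjusted p = 0.0192). The differences from N2 were 0.54 for the double mutant (adjusted p = 0.0683) and 0.49 for the triple mutant (adjusted p = 0.0643).

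The aph-2 results moved with N2 replicate 2 and with the method. Without that library the differences from N2 became 0.77 for the double mutant (edgeR adjusted p = 0.0147) and 0.73 for the triple mutant (adjusted p = 0.00986), and the interaction became -0.92 (adjusted p = 0.0274, against -0.69 and 0.112 with it). With every library kept, both differences from N2 also passed with limma-voom (adjusted p = 0.0318 and 0.0323). In edgeR they passed with library totals (0.0074 and 0.0403) and with a mean of at least 5 CPM (0.0473 and 0.0413). The interaction passed with limma-voom (adjusted p = 0.0317) and with library totals in edgeR (0.0171). The daf-2 rise of aph-2 in turn missed the threshold without N2 replicate 1 or 3 or any daf-2 replicate (adjusted p from 0.0508 to 0.0973). It also missed it with the trailing 1 or 2 of the library names as a factor (0.58, adjusted p = 0.0971). The labels do not say what that digit means, and all 3 daf-2 libraries carry a 2.

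In daf-2, aph-1 and pen-2 lay below N2 without passing. For aph-1, which encodes a scaffold subunit (WBGene00000147, chromosome I, 9232068 to 9233560), the replicates gave 31.6, 28.3 and 29 CPM (N2), 22.8, 17.9 and 23.7 (daf-2), 25.5, 25.9 and 30.2 (double mutant) and 30.1, 31.5 and 22.9 (triple mutant). All daf-2 values lay below all N2 values, and the triple mutant overlapped both. The aph-1 log2 difference between daf-2 and N2 was -0.46 (95% interval -0.8 to -0.12; edgeR adjusted p = 0.052), and DESeq2 put it at an adjusted p of 0.025. The call appeared under 9 of 21 other settings.

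For pen-2, which encodes the subunit needed for presenilin to mature (WBGene00003975, chromosome III, 11343322 to 11344147), the replicates gave 55.7, 37.2 and 49.2 CPM (N2), 38.1, 27.9 and 34.5 (daf-2), 25.6, 41.1 and 35.5 (double mutant) and 28.5, 40.2 and 32.4 (triple mutant). The 3 mutant groups overlapped N2 through N2 replicate 2, the lowest of its group. The differences from N2 were alike in size, -0.49 for daf-2, -0.47 for the double mutant and -0.49 for the triple mutant, with edgeR adjusted p of 0.0879, 0.128 and 0.0852. Without N2 replicate 2 the daf-2 difference was -0.64 and passed (adjusted p = 0.0387), as did that of the triple mutant (-0.64, adjusted p = 0.0379). With every library kept, both also passed with limma-voom (adjusted p = 0.0351 and 0.0211) and in edgeR with no filter on low counts (0.0346 and 0.0297). The exons of pen-2 share 9.94% of their bases with T28D6.7 on the other strand.

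Of the Notch receptors, lin-12 (WBGene00003001, chromosome III, 9060221 to 9071472) was higher in each mutant than in N2. Its N2 libraries held 7.88, 7.34 and 7.72 CPM and its daf-2 libraries 16, 12.6 and 12.5 CPM. Those of the double mutant held 12.7, 19.2 and 11.8 CPM and those of the triple mutant 14.3, 14.7 and 17.4 CPM. The 3 N2 libraries lay within a narrow range below all 9 mutant libraries, and the mutant groups overlapped each other. Against N2, lin-12 rose by 0.84 ± 0.21 on the log2 scale in daf-2 (edgeR adjusted p = 0.00771), by 0.93 ± 0.20 in the double mutant (adjusted p = 0.00927) and by 1.01 ± 0.20 in the triple mutant (adjusted p = 0.00188). These comparisons share the N2 libraries, so they are not separate evidence.

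The single rises of lin-12 stand beside that of the triple mutant as follows. The triple mutant differed from daf-2 by 0.17 (95% interval -0.25 to 0.6) and from the double mutant by 0.08 (-0.34 to 0.51). The interaction, the daf-2 effect with the spr mutations minus that without them, was -0.76 ± 0.29 (interval -1.36 to -0.15), which missed the threshold (edgeR adjusted p = 0.114). The rises against N2 passed under all 21 other settings, with the highest adjusted p at 0.0475 in daf-2. Averaged over backgrounds they were 0.46 for daf-2 (edgeR adjusted p = 0.0263) and 0.55 for spr-4;spr-3 (adjusted p = 0.015). The first was lost without N2 replicate 2, daf-2 replicate 1, replicates 1 or 3 of the double mutant or replicate 3 of the triple mutant (adjusted p from 0.0531 to 0.0826), the second without daf-2 replicate 3 (adjusted p = 0.0532).

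The germline receptor gene glp-1 (WBGene00001609, chromosome III, 9092241 to 9099698) was the more abundant receptor and passed in no comparison. The replicates gave 79, 100.2 and 80.0 CPM (N2), 88.8, 109.7 and 74.7 (daf-2), 126, 101 and 109 (double mutant) and 106, 72.7 and 90.3 (triple mutant). The double mutant lay above all N2 values, and every other pair of groups overlapped. The log2 difference of the double mutant from N2 was 0.37 (95% interval 0.02 to 0.73; edgeR adjusted p = 0.167), and those of daf-2 and the triple mutant from N2 were 0.07 (-0.28 to 0.43) and 0.05 (-0.3 to 0.41). Per kilobase, lin-12 made up 7.85 ± 1.17% of receptor RNA for N2, 12.7 ± 2.5% for daf-2, 11.1 ± 3.67% for the double mutant and 14.3 ± 2.58% for the triple mutant. N2 lay below every mutant library, but only just below the double mutant (8.66% in N2 replicate 1, 8.7% in double mutant replicate 1).

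Markers of germline stem cells and meiosis were counted beside the receptors, since glp-1 is expressed there. In daf-2, 7 of 16 rose and 1 fell against N2 (median 0.33), with 4 called without N2 replicate 1 or 3 or any daf-2 replicate and 5 with the library-name digit, and in the triple mutant 10 of 16 rose and 0 fell (median 0.76). In the double mutant 5 of 16 rose and 0 fell against N2 (median 0.31), where the glp-1 difference was 0.37 and did not pass. For these comparisons, in the order given, 20.6%, 22.2% and 11.7% of all genes passed. The summed level of the 16 markers was 839 to 1058 CPM in N2 and 1050.2 to 1184 CPM in daf-2. It was 941 to 1076 CPM in the double mutant and 1255 to 1464 CPM in the triple mutant. The glp-1 interval for the triple mutant against N2 spans 0. In RNA from whole worms, fewer cells of a type and less RNA per cell cannot be told apart, and the part of tissue makeup in any of these values was not tested.

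The DNA-binding protein of the pathway, LAG-1, was encoded by a transcript that passed in no comparison (lag-1, WBGene00002245, chromosome IV, 6095407 to 6110655). The replicates gave 42.9, 56.4 and 47.5 CPM (N2), 38.7, 45.6 and 48.2 (daf-2), 48.9, 46.7 and 42.1 (double mutant) and 57.6, 38.5 and 42.8 (triple mutant), and all groups overlapped. Its differences from N2 were -0.15 (95% interval -0.49 to 0.19) in daf-2, -0.09 (-0.43 to 0.25) in the double mutant and -0.08 (-0.42 to 0.26) in the triple mutant. Over the 4 genotypes, 95.2% of tested genes had a larger F statistic than lag-1. For comparison, that share was 8.13% for apx-1, 10.7% for hop-1, 15.8% for lin-12 and 35.5% for aph-2.

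The DSL ligand gene apx-1 (WBGene00000168, chromosome V, 3210196 to 3223221) fell with daf-2 in both backgrounds. APX-1 is known as a maternal ligand that signals to GLP-1 in the early embryo. N2 measured 39.9, 58 and 29.4 CPM and daf-2 measured 18.8, 22.9 and 20.7 CPM. The double mutant measured 37.8, 36.7 and 35.3 CPM and the triple mutant 21.3, 22.2 and 20.4 CPM. All 6 libraries with the daf-2 mutation lay below all 6 without it, and N2 spread most, with replicate 2 the highest.

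The apx-1 level fell by 1.03 ± 0.19 on the log2 scale from N2 to daf-2 (95% interval -1.44 to -0.63; edgeR adjusted p = 0.00102), to 0.488 times the N2 level. It fell by 0.78 ± 0.19 from the double to the triple mutant (edgeR adjusted p = 0.0109), and the interaction was 0.25 (interval -0.32 to 0.82). The averaged daf-2 effect was -0.91 ± 0.13 (edgeR adjusted p = 1.03e-04). With the spr mutations apx-1 differed by -0.21 (interval -0.61 to 0.18) from N2 and by 0.04 (-0.37 to 0.44) from daf-2. No setting ended the daf-2 calls of apx-1, with adjusted p up to 0.0107 against N2 and 0.0454 between the triple and the double mutant.

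Oocyte genes were counted beside apx-1 and hop-1. In daf-2, 0 of 16 rose and 13 fell against N2 (median -0.78), among them the yolk receptor gene rme-2 (-1.44 ± 0.15, edgeR adjusted p = 3.13e-06) and the RNA-binding protein gene puf-5 (-1.63 ± 0.16, adjusted p = 2.57e-06). Between the triple mutant and daf-2, 10 of 16 rose and 0 fell (median 0.66; 5 called without daf-2 replicate 3), with rme-2 at 1.28 ± 0.15 (edgeR adjusted p = 4.39e-05), while the apx-1 difference in that pair was the 0.04 given above. Between the triple and the double mutant, 0 rose and 5 fell (median -0.32; 3 called without replicate 3 of the double mutant and 11 with library totals). In the double mutant against N2, 2 rose and 2 fell (median 0.05). For these comparisons, in the order given, 20.6%, 13.4%, 14.9% and 11.7% of all genes passed. The hop-1 differences in the same order were -0.64, 0.53, -0.54 and 0.43, of which 0.53 and 0.43 did not pass. The summed level of the 16 genes was 32981 to 35547 CPM in N2, 17552 to 21613 in daf-2, 20979 to 28327 in the double mutant and 18739.8 to 21366 in the triple mutant, with 0 genes undetected. The summed levels of daf-2 and the triple mutant overlapped, while 10 of the 16 genes rose between them. The part of oocyte number in the fall of apx-1 and hop-1 was not tested.

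**Figure D4:**
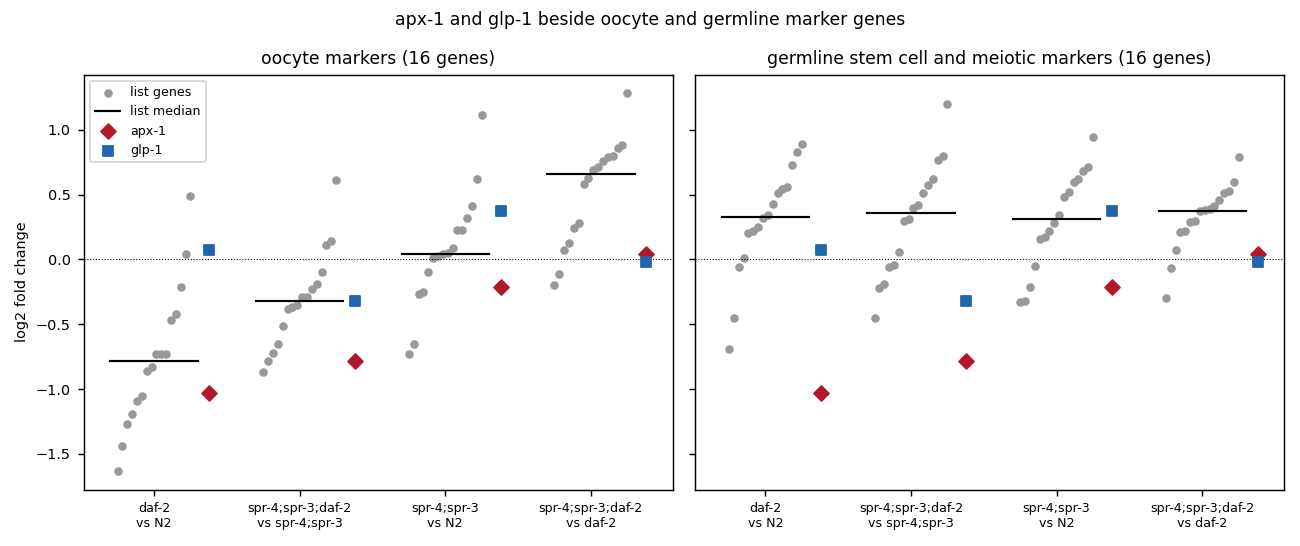
Log2 fold changes of 16 oocyte markers (left) and 16 germline stem cell and meiotic markers (right) in 4 comparisons, as grey points with a line at the list median, beside apx-1 (diamonds) and glp-1 (squares). In the triple mutant against daf-2 the oocyte median is 0.66 while apx-1 is at 0.04.

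The gene lag-2 (WBGene00002246, chromosome V, 3188343 to 3190115), whose product is the distal tip cell ligand for GLP-1, was the lowest of the 10. The N2 libraries held 48, 63 and 23 counts, those of daf-2 45, 9 and 45, the double mutant ones 3, 42 and 56, and the triple mutant ones 53, 45 and 41. In replicate 1 of the double mutant, 0.105 CPM had an exact 95% Poisson interval of 0.0216 to 0.306 CPM, below the intervals of all other libraries, which covers counting error only. Its difference between daf-2 and N2 was -0.5 with a 95% interval of -1.94 to 0.95 on the log2 scale, and it passed in no comparison. Somatic gonad markers summed to 578 to 723 CPM in N2, 495 to 565 in daf-2, 495 to 569 in the double mutant and 461 to 525 in the triple mutant.

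Several of the 10 genes lie in pairs on a chromosome. The receptors lin-12 and glp-1 are 20768 bases apart with 5 protein-coding genes between them. In daf-2, the double mutant and the triple mutant against N2, where lin-12 rose, 0 of these 5 passed. The shares of all genes were 20.6%, 11.7% and 22.2%. The ligands lag-2 and apx-1 are 20080 bases apart with 6 protein-coding genes between them. Of the 5 tested there, 0 passed between daf-2 and N2, against 20.6% of all genes. From the double to the triple mutant 1 was lower (Y73C8B.2), against 14.9%. In the triple mutant against N2, 2 were lower (Y73C8B.2 and Y73C8B.3), against 22.2%. In these comparisons apx-1 fell. Y73C8B.3 was also lower in the double mutant against N2 (-0.71, edgeR adjusted p = 0.00394), where 11.7% of all genes passed. There, apx-1 differed by -0.21 and did not pass.

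The patterns of the 4 genes with the largest F statistics were set against all tested genes by Pearson's r of log2 CPM over the 12 libraries, as a description. For apx-1 the closest were meg-1 (0.959), ZK686.3 (0.958) and trak-1 (0.931). The gene meg-1, which encodes a germ granule protein, went from 183 ± 28.9 CPM in N2 to 102 ± 10.1 in daf-2 and stood at 103 ± 7.22 in the triple mutant. For hop-1 they were the Mediator subunit gene mdt-6 (0.972), T24D1.3 (0.967) and F14H3.6 (0.964), and for lin-12 pros-1 (0.909), csp-2 (0.895) and srg-31 (0.892). For aph-2 they were nrde-4 (0.938), B0546.5 (0.936) and oac-37 (0.927), of which B0546.5 and oac-37 were at mean levels of 0.467 and 1.49 CPM. The points share libraries and scaling, and the closest were picked out of all tested genes.

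Presenilin-related proteases, which also cut inside membranes, were examined as a list of 4. Against N2, 0 rose and 3 fell in daf-2 (median -0.47), and 2 rose and 0 fell in the double mutant (median 0.27). The shares of all genes called were 20.6% and 11.7%. With library totals in place of TMM 0 of the 4 passed in daf-2, and the rise of imp-1 in the double mutant was lost under 15 of 21 settings. The gene spe-4, a presenilin relative needed for sperm formation, gave 5.03, 7.47 and 5.37 CPM (N2), 2.82, 3.06 and 3.29 (daf-2), 13, 15.3 and 20.3 (double mutant) and 10.8, 7.28 and 9.5 (triple mutant). Both spr strains lay above their matched strain without overlap, by 1.44 ± 0.24 (edgeR adjusted p = 0.00151) and 1.58 ± 0.25 (adjusted p = 6.41e-04). The spe-4 calls for the spr mutations held under all 21 other settings. The fall in daf-2 was -0.96 ± 0.25 (adjusted p = 0.0109) and was lost without N2 replicate 2 (-0.76, adjusted p = 0.0545), with library totals (-0.74, 0.0531) and with the library-name digit (-0.75, 0.0777). Sperm markers as a list had 1 of 9 higher and 2 lower in the double mutant against N2, beside 11.7% of all genes called.

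Of the intramembrane proteases, imp-1 fell by 1.11 ± 0.15 from the double to the triple mutant (edgeR adjusted p = 1.05e-04) under all settings. Its fall in daf-2 against N2 was -0.53 ± 0.14 (adjusted p = 0.0148), lost without daf-2 replicate 1 or 3 (0.0707 and 0.0524) and with library totals (-0.31, 0.234). The change of imp-2 in daf-2 was -0.42 ± 0.12 (adjusted p = 0.0192), lost without N2 replicate 2 or daf-2 replicate 1 or 3 (0.0646, 0.0845 and 0.0524), with library totals (-0.2, 0.344), with no filter (0.0914) and with the library-name digit (0.0839). The level of imp-3 differed by -0.14 and did not pass.

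The 13 other DSL and DOS ligand genes, of which 12 were tested, moved in both directions. DOS proteins are known to act with DSL ligands on worm Notch receptors. In daf-2, 1 rose and 2 fell against N2 (median 0.05), beside 20.6% of all genes called. Between the triple mutant and daf-2, 3 rose and 1 fell (osm-7), beside 13.4% of all genes. The 3 were dsl-3, dsl-1 and dsl-2, whose calls were lost under 1, 5 and 11 other settings. From the double to the triple mutant 2 rose (dos-3 and dsl-2) and 2 fell, beside 14.9%. The gene dos-3 rose from 13.2, 15.9 and 11.8 CPM in N2 to 74.6, 53 and 58.5 in daf-2, a log2 change of 2.18 ± 0.16 (edgeR adjusted p = 1.15e-07), and from 20.1, 17 and 18.2 CPM in the double to 70.3, 58.6 and 63.9 in the triple mutant (1.8 ± 0.16, adjusted p = 2.1e-06). All libraries with the daf-2 mutation were far above all without it, in the opposite direction to apx-1.

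The gene dos-1 fell along with apx-1, from 33.8, 24.3 and 40.8 CPM in N2 to 10.8, 6.04 and 10.1 in daf-2 (-1.86 ± 0.25, edgeR adjusted p = 5.15e-05). It measured 22.2, 13 and 18 CPM in the double and 6.57, 7.38 and 7.11 CPM in the triple mutant (-1.33 ± 0.24, adjusted p = 0.00163). The DOS gene osm-7 was lower in the triple mutant, at 8.07, 7.8 and 11.8 CPM against 27.2, 21.1 and 22.3 in daf-2 (-1.35 ± 0.18, edgeR adjusted p = 2.05e-04) and 21.3, 17 and 20.9 in the double mutant (-1.09 ± 0.18, adjusted p = 8.36e-04). The calls of dos-3, dos-1 and osm-7 given here held under all 21 other settings. The ligand gene dsl-3 was -0.5 ± 0.14 lower in daf-2 (adjusted p = 0.0177), a call lost without N2 replicate 1 or 3 or daf-2 replicate 2 (0.0633, 0.0607 and 0.0731), with library totals (-0.28, 0.215) and with the library-name digit (0.0707).

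Of the proteins that work on the receptor itself, the co-activator gene sel-8, whose product fills the role of Mastermind in other animals, gave 6.12, 5.6 and 4.1 CPM in the double and 2.6, 2.57 and 2.54 CPM in the triple mutant. That fall was -1.03 ± 0.28 (edgeR adjusted p = 0.0197) and was lost without replicate 1 of the double mutant or any triple mutant replicate (adjusted p from 0.0522 to 0.0708). The ADAM protease genes sup-17 and adm-4 passed in no pairwise comparison, with daf-2 minus N2 differences of -0.11 and -0.54. Of 12 regulators of Notch trafficking and turnover, 0 rose and 1 fell in daf-2 against N2, and 0 rose and 3 fell from the double to the triple mutant. The shares of all genes called were 20.6% and 14.9%. The daf-2 call, sel-11, was lost under 6 of 21 other settings. From the double to the triple mutant the call of epn-1 was lost under 17, while those of sel-1 and sel-9 held under all. The gene sel-1, whose product acts in protein turnover at the endoplasmic reticulum, fell from the double to the triple mutant by 0.63 ± 0.13 (edgeR adjusted p = 0.00304).

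Another gamma-secretase substrate, the amyloid precursor relative apl-1, stood at 259, 337 and 302 CPM (N2), 254, 249 and 234 (daf-2) and 228, 194 and 217 (triple mutant). Its difference from N2 was -0.28 ± 0.13 for daf-2 (edgeR adjusted p = 0.153) and -0.49 ± 0.13 for the triple mutant (adjusted p = 0.0152). The latter call was lost without N2 replicate 2 or triple mutant replicate 2 (0.0662 and 0.0603) and with library totals (-0.34, 0.124). From the double to the triple mutant apl-1 was also called lower, with -0.63 to -0.34 over the other settings. That call was lost under 14 of 21 of them. The substrate gene unc-40 passed in no comparison.

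Of 4 germline targets of GLP-1, 1 passed in daf-2 against N2 (sygl-1, lower), 0 in the double mutant against N2 and 1 in the triple mutant against N2 (fbf-2, higher), while glp-1 passed in none of these. The shares of all genes called were 20.6%, 11.7% and 22.2%. The targets sygl-1 and lst-1 keep germline stem cells undifferentiated. The replicates of sygl-1 gave 172, 153 and 179 CPM (N2), 86.8, 77.6 and 80.0 (daf-2), 97.5, 161 and 71 (double mutant) and 173, 213 and 203 (triple mutant). The daf-2 libraries lay below all of N2 and of the triple mutant, and the double mutant spread over both levels.

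For sygl-1 the change was -1.05 ± 0.21 in daf-2 against N2 (edgeR adjusted p = 0.00206) and 1.27 ± 0.21 between triple mutant and daf-2 (adjusted p = 0.00104). The interaction was 1.89 ± 0.30 (adjusted p = 0.00208), in a comparison where 8.32% of all genes passed (4.89% higher, 3.43% lower) and edgeR called 0 of the 10 pathway genes. There, 3 of the 10 had an unadjusted p below 0.05, DESeq2 called 0 and limma-voom called 1, aph-2. These sygl-1 calls held under all other settings. From the double to the triple mutant sygl-1 rose by 0.84 ± 0.21 (adjusted p = 0.0129), lost without replicate 1 or 3 of the double mutant (0.0573 and 0.0623) and on the 2 groups alone (0.0606). In these 3 pairs, in the order given, glp-1 differed by 0.07, by -0.02 (interval -0.38 to 0.34) and by -0.32 (interval -0.68 to 0.04), and lag-1 by -0.15, 0.07 and 0.01.

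The germline target fbf-2, a PUF-family RNA-binding protein gene, measured 26.5, 22.7 and 24.3 CPM in daf-2 and 41, 47.1 and 50.7 CPM in the triple mutant (0.91 ± 0.19, edgeR adjusted p = 0.00558). It was also higher in the triple mutant than in N2, at 23.8, 16.7 and 27.1 CPM (1.04 ± 0.19, adjusted p = 0.00107), where the sygl-1 difference was 0.23 (interval -0.22 to 0.67). From the double mutant, at 15.9, 26 and 22.3 CPM, it rose by 1.11 ± 0.20 (adjusted p = 0.00121), and these fbf-2 calls held under all 21 other settings. Its reads may be split with its near-identical neighbour fbf-1, which rose from daf-2 to the triple mutant by 0.79 ± 0.19 (adjusted p = 0.0107, lost without replicate 3 of either group, with an adjusted p of up to 0.0644). The rise of lst-1 in that pair, 0.51 ± 0.15 (edgeR adjusted p = 0.0343), was lost without daf-2 replicate 2 or 3 or any triple mutant replicate (adjusted p from 0.068 to 0.141), with the replicate block (0.0589) and with the library-name digit (0.0653). The level of lip-1 differed by 0.35 ± 0.21 (adjusted p = 0.316). In all, 3 of 4 rose and 0 fell in the triple mutant against daf-2 (median 0.71), beside 3 of 16 germline markers higher and 0 lower (median 0.37), a count that ran from 0 without triple mutant replicate 3 to 8 with limma-voom. Between the triple mutant and daf-2, 13.4% of all genes passed. The share of stem cells in these worms was not measured.

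**Figure D5:**
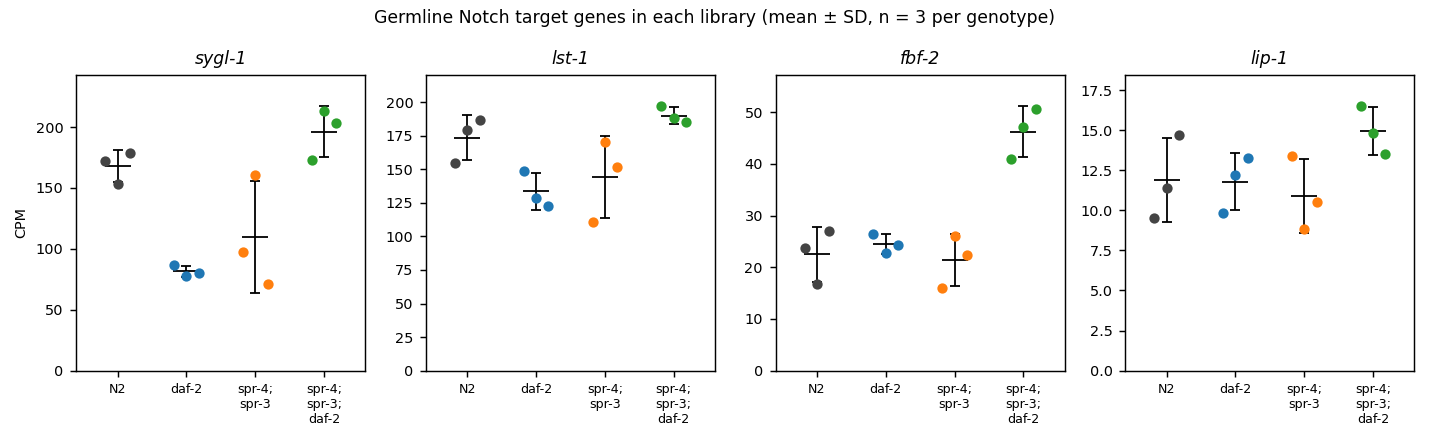
Level in CPM of 4 germline Notch targets on linear axes, with a point for every library and bars at the mean ± SD of 3. The sygl-1 points of daf-2 lie between 77.6 and 86.8 CPM, below all N2 points and below the triple mutant points at 173 to 213 CPM.

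Targets known from the soma and the embryo include the basic helix-loop-helix genes hlh-25 to hlh-29, whose mean levels were below 1 CPM in every genotype. Of 11 targets tested, 1 rose and 0 fell in daf-2 against N2 (median -0.27), beside 20.6% of all genes called. It was ref-1, a basic helix-loop-helix gene, at 2.1, 1.31 and 0.646 CPM in N2 and 3.71, 2.5 and 3.5 CPM in daf-2 (1.27 ± 0.40, edgeR adjusted p = 0.034). That call was lost without N2 replicate 2 or 3 or daf-2 replicate 1 or 3 (adjusted p from 0.0823 to 0.129) and with the library-name digit (0.134). In the double mutant edgeR called 0 of 11 against N2, and in the triple mutant 0 rose and 2 fell (lst-2, -0.57 ± 0.14, adjusted p = 0.00665, and vav-1, -0.59 ± 0.20, adjusted p = 0.0414). The vav-1 call was lost without any N2 or any triple mutant replicate, with library totals and with the library-name digit (adjusted p from 0.0614 to 0.126), and that of lst-2 with library totals (-0.42, 0.0803). From the double to the triple mutant 0 rose and 2 fell, lst-4 (-0.75 ± 0.17, adjusted p = 0.00843; 0.0528 without replicate 3 of the double mutant) and lst-2 (-0.45 ± 0.14, adjusted p = 0.0337, lost under 10 of 21 settings). Against daf-2 the triple mutant had 1 call, hlh-26, which had 0 counts in the daf-2 libraries and 53 over those of the triple mutant. It was lost without daf-2 replicate 1 (adjusted p = 0.0626) or 3 (0.0882). For the comparisons after daf-2 against N2, in the order given, 11.7%, 22.2%, 14.9% and 13.4% of all genes passed.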

How the data were processed

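Per the submitters' processing notes, reads were aligned with STAR to WBcel235 and assigned with featureCounts 1.5.1. The authors deposited raw counts per gene, with no normalization. Per the labels' protocols, SMART-Seq cDNA was made from 2 ng of RNA and read as 75 bp pairs. Strand setting, annotation release and handling of multiply mapped reads are not given in the sources read.

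Genes with at least 10 counts in enough libraries (filterByExpr, minimum total 15) were fitted with edgeR 4.0.16 (R 4.3.3) by TMM and the robust quasi-likelihood F-test over all 12 libraries and 4 genotype means. Benjamini-Hochberg adjustment covered 18342 genes, and a call is an adjusted p below 0.05. DESeq2 1.42.0 and limma 3.58.1 were alternatives, beside other scalings, filters, designs and each library left out. CPM per kb used exon bases of Ensembl release 115, which also gave coordinates and names. P-values rest on the spread between the 3 replicates of each genotype, estimated jointly over all 12 libraries (8 residual degrees of freedom). Libraries of genotypes outside a comparison thus also enter its p-value. The fit also moderated the spread of each gene with that of all tested genes, which adds prior degrees of freedom to the residual ones. The SE is the absolute log2 change divided by the square root of F, and intervals use the total degrees of freedom. The code was tested on simulated data. The 10 genes and all lists (164 of 169 symbols matched) were chosen with earlier results of these data known. In lists of over 4 genes, at most 4 called genes per comparison, those with the smallest adjusted p, are named. Likeness was computed for the 4 genes with the largest F.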

Additional observations from a re-analysis of the deposited data

Results flagged for a closer look

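The daf-2 effect with the spr mutations minus that without them was tested as an interaction with edgeR (Benjamini-Hochberg adjusted). It passed for 8.32% of all genes. In the pathway, germline and oocyte lists it passed for 12 genes, each flagged because the daf-2 effect differs between the 2 backgrounds. It also passed for other tissue markers, not named here. These were intestine (3 of 9 higher, 1 lower), neuron (3 of 10 lower), body wall muscle (3 of 10 higher), somatic gonad (2 of 8 higher) and hypodermis (1 of 8 lower). Among pathway genes the log2 difference was 1.89 for sygl-1, 0.99 for fbf-2, 0.77 for lst-1, -0.97 for osm-7 and -0.85 for sel-1. Among germline markers it was 1.0 for fbf-1, 0.85 for gld-2 and -0.87 for htp-1. Among oocyte markers it was 1.55 for rme-2, 0.98 for nos-2, 0.82 for mex-5 and 0.77 for puf-5. The interactions of sygl-1, sel-1, rme-2 and nos-2 passed under all 20 other settings, and those of the other 8 named genes were each lost under at least 4.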

How the results depend on the processing

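Of 80 results on the 10 genes (10 genes, 8 contrasts), 14 were called with edgeR. Of these 5 lost the call under at least 1 of the 21 other settings, 13 uncalled results gained it, and 0 reversed. With library totals in place of TMM, the double mutant against N2 had 4577 genes called in place of 2141 and 4 of the 10 in place of 1, and the interaction 3249 in place of 1526 and 3 of the 10 in place of 0. The median log2 change of all genes moved there from 0.04 to 0.4 and from -0.05 to -0.48, and the share of higher calls from 43.4 to 88.2% and from 58.8 to 14.3%. In daf-2 against N2 that share moved from 46.6 to 70.3%, in the triple mutant against daf-2 from 50.4 to 40.6%, against the double mutant from 47.0 to 23.9% and against N2 from 48.8 to 64.8%, and for the averaged spr effect from 48.8 to 71.1%. DESeq2 gave 2329 interaction genes, limma-voom 3977 genes between the triple mutant and daf-2 (2461 with edgeR), and the double mutant against N2 fitted on those 2 groups alone 983.

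Of the 10, the double mutant against N2 had 2 called with limma-voom and with a mean of at least 5 CPM. The triple mutant against daf-2 had 1 with DESeq2, limma-voom, DESeq2 size factors in edgeR and the 5 CPM filter. Against the double mutant it had 1 with no filter, with the library-name digit, on the 2 groups alone and with the replicate block, and against N2 it had 4 with limma-voom, which gave 1 for the interaction. Leaving out 1 library gave 2600 to 4132 genes called for daf-2 against N2 (2 to 6 of the 10), 943 to 3139 for the double mutant against N2 (1 to 2), 1376 to 2841 for the triple mutant against daf-2 (0 to 1), 1582 to 3303 against the double mutant (1 to 2), 2931 to 4313 against N2 (2 to 4), 772 to 2505 for the interaction (0 to 1), 3628 to 4558 for the averaged daf-2 effect (2 to 3) and 2115 to 3352 for the averaged spr effect (1 to 2).

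No pairing by replicate number was seen: of 18 same-number pairs, 6 had a correlation of deviations over 0.1 (median -0.104), beside 0.062 for other numbers. Deviations from a mean of 3 libraries constrain each other, so this check cannot show that samples were handled unpaired. The replicate block gave 3417, 1773, 2110, 2357, 3651 and 1151 genes for the pairwise contrasts and the interaction in the order above, and of the 10 it ended the call of hop-1 between the triple and the double mutant (adjusted p = 0.0539). The 5 CPM filter removed lag-2, and the interaction and averaged effects have no value on the compared groups alone. Limits are 3 libraries per genotype, RNA of whole worms, alleles that are not given, and 3 to 63 counts per library for lag-2.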
